A study of Mus musculus with 6 samples.

Results

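The genes described here are the digestive enzymes of the intestinal brush border and the carriers that take up sugars, amino acids, vitamins and ions. They were taken from a list of 39 symbols, and all 39 have a row among the 21255 genes of the table. The list is divided into 7 classes by the function of the encoded proteins. Small intestinal organoids, which are crypt cultures grown in Matrigel from jejunal crypts, were treated with 400 nM 4-OHT on 2 days according to the labels (the study's methods give another dose). In the series there are 6 samples, 3 of them control and 3 C/EBPα KO. Control organoids come from mice with the floxed C/EBPα alleles (C/EBPα Flox/Flox) and without a Cre transgene, although their labels call the genotype wildtype. C/EBPα KO organoids carry the VillinCreERT2 transgene as well, whose promoter is active in the gut epithelium, so that both groups share the floxed alleles and the 4-OHT. Strain, age and sex of the mice, and whether each library came from its own mouse, are not given in the sources used here.

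The table has 6 columns of values, of which 3 carry numbers that belong to control libraries (S1, S2, S3). The names of the other 3 columns match no label of a sample, as the C/EBPα KO libraries are numbered 7, 8 and 9. Only elimination, and no name, would tie these columns to the C/EBPα KO libraries, and they were not used. What follows therefore describes the 39 genes in 3 control libraries. No difference between genotypes was computed, and no test was made, since the 3 libraries form 1 group. Bulk libraries cannot tell fewer cells of a type from less RNA per cell.

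Enterocytes, the absorptive cells of the small intestine, carry on their apical surface a dense layer of microvilli, the brush border. Disaccharidases and peptidases anchored in this membrane complete the digestion of sugars and peptides, and carriers in the same membrane move the products into the cell. Other carriers in the basolateral membrane pass them on to the blood. Enzymes and carriers of this kind mark differentiated enterocytes, while the crypt cells that renew the epithelium have less of them.

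The libraries held 30405545 to 36819530 reads on genes. Cebpa, the gene targeted in the series, had 6446, 5829 and 6016 normalized counts in S1, S2 and S3, which checks no label of a C/EBPα KO library. All 10 enterocyte markers were measured with over 100 TPM, whereas of 6 mesenchymal markers 5 had a row and 1 of them (Vim) reached a mean of 10 normalized counts. Col1a2 and Acta2 were at 0 reads in all 3 libraries. The libraries differed in sex-linked transcripts, with Xist at 18.9 normalized counts in S1 but 15423 in S2 and 14769 in S3, and Ddx3y at 1256, 67.3 and 2.30. Summed over 6 markers, Paneth cells had 112474, 121668 and 136439 normalized counts in S1, S2 and S3. The sums of the other secretory cell types were also lowest in S1 and highest in S3, with 11272, 14101 and 15448 for 7 enteroendocrine markers and 70240.5, 77814 and 84341 for 7 goblet cell markers. Tuft cell markers, of which 5 of 6 had a row, came to 397, 435 and 475. The sums rest on the abundant markers, and single markers were not all higher in S3 than in S1: 6 of 6 Paneth, 6 of 7 goblet, 5 of 7 enteroendocrine and 3 of 5 tuft cell markers were. For the 10 enterocyte markers, which include Sis and Alpi, the sums were 792433, 791376 and 762043. Of these 10 markers, 4 were higher in S3 than in S1, Sis and Alpi among them. The enterocyte sums also rest on abundant markers, such as Fabp1 with 181477, 194747 and 158110 normalized counts. The cultures also held crypt cell transcripts. The sums were 39459.5, 36799 and 37472 for 6 stem cell markers, of which 3 were above 100 TPM. For 6 markers of proliferating cells they were 42568, 43179 and 43229, and 2 of these markers were above 100 TPM. The part of these differences in the results on single libraries was not tested.

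Promoter sequence was looked at first, as a feature that the list did not use. Windows before the annotated start were found for 35 of the 39 genes by symbol (RefSeq, GRCm38.p6), and the 250 bases before the start were searched on both strands. Mep1b, Slc23a1, Slc39a4 and Naaladl1 were not matched. The binding sites of factors known to act in the intestine were written as short strings. In all, 11 strings were searched, of which 5 are other spellings or the general CCAAT box, and every count is given. The choice of the genes shown was made after the counts had been seen. CAAAGTCCA is the string with the largest ratio to its share in all genes, among those found in the listed genes. As a difference between shares, the contrast was larger for other strings, such as CAAAGT. HNF4, a nuclear receptor of enterocytes, was searched as CAAAGTCCA. It was found in 3 of the 35 genes (8.57%), and in 0.451% of the 27025 genes with a window. The 3 genes were Alpi, which encodes intestinal alkaline phosphatase, Treh, which encodes trehalase, and Slc3a1, the heavy subunit of the cystine carrier. Their windows are shown together with that of Sis, the gene of the list with the highest level, with HNF4 strings in capitals for Alpi, Treh and Slc3a1, and the TATA box string (TATAAA) in capitals for Slc3a1 and Sis. In Sis the capitals also mark the HNF1 core string (GTTAAT), which lies on the other strand. The sequences run 5′ to 3′ on the strand of the gene, and the 4 genes lie at chr1:87101607-87101856 on the minus strand (Alpi), chr9:44672983-44673232 on the plus strand (Treh), chr17:85028097-85028346 on the plus strand (Slc3a1) and chr3:72967864-72968113 on the minus strand (Sis).
Alpi: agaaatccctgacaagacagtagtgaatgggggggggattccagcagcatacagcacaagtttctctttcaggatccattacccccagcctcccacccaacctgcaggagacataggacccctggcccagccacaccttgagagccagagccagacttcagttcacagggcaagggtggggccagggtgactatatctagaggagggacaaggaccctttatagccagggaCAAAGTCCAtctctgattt
Treh: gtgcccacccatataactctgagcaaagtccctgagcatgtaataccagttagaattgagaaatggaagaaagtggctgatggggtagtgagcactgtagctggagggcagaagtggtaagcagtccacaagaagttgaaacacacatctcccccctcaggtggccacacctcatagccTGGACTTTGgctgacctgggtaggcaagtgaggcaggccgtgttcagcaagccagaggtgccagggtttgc
Slc3a1: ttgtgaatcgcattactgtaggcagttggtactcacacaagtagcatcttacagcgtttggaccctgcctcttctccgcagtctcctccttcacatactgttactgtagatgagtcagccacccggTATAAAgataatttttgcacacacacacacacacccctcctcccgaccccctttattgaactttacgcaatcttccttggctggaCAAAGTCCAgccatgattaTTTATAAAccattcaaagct
Sis: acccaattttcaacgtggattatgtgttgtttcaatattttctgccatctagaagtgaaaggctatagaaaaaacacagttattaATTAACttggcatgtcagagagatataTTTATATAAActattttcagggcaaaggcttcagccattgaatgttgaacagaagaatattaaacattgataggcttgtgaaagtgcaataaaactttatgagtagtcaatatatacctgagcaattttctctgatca

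The HNF4 string lies 19 to 11 bases before the start in Alpi, 39 to 31 in Slc3a1 and, on the other strand, 71 to 63 in Treh. In Alpi the TATA box string, which is not in capitals, lies on the other strand at 33 to 28 bases before the start. In Slc3a1 this string lies at 124 to 119 and at 18 to 13 bases, and on the other strand at 20 to 15. In Sis it lies further from the start, at 134 to 129 bases, and on the other strand at 138 to 133. TATAAA was found in 10 of the 35 genes (28.6%) and in 14.3% of all genes. AGATAA, a string for GATA factors, was found in 8 (22.9%, against 11.4%), among them Lct and Mgam. For TTTATNG (CDX factors, among which CDX2 is known for its role in Sis transcription) the count was 6 (17.1%, against 11.3%), for GTTAAT 5 (14.3%, against 7.49%) and for TTGCNNAA (C/EBP factors) 6 (17.1%, against 10.8%). The C/EBP string was found in Enpep, Slc34a2, Slc36a1, Slc3a1, Slc7a7 and Treh. TATAAA and TTTATNG can overlap, as they do in Alpi. Among the remaining spellings, the shorter HNF4 string CAAAGT was found in 11 genes (31.4%, against 14.1%), and it lies within CAAAGTCCA. The CCAAT box was found in 15 genes (42.9%, against 37.5%). The full HNF1 palindrome, the stricter CDX string TTTATGG and the full C/EBP string TTGCGCAAT were found in 0 of the 35 genes, against 0.0111%, 2.83% and 0.0518% of all genes. For 5 of the 35 genes with more than 1 window, a match in any of them was counted. A string is a match of letters and not a measured binding site.

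Levels between genes were compared as TPM, which divide the reads of a gene by the length of its longest coding transcript and scale each library to the same sum. The 39 genes together made up 7298 ± 268.5 TPM (SD, n = 3) and 1.64% ± 0.0434 of the reads on genes. Their median was 74.1 TPM, beside 14.5 TPM over 13791 of the 13803 genes whose mean reached 10 normalized counts, as 12 had no annotated length. All 39 passed this minimum. Of the 39 genes, 13 were above 100 TPM, 22 between 10 and 100 TPM and 4 below 10 TPM. With the union of exons as the length these numbers were 15, 18 and 6, as Slc26a3 and Slc6a19 came to lie above 100 TPM and Xpnpep2 and Slc5a6 below 10. The highest was 2356-fold above the lowest.

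**Figure D1:**
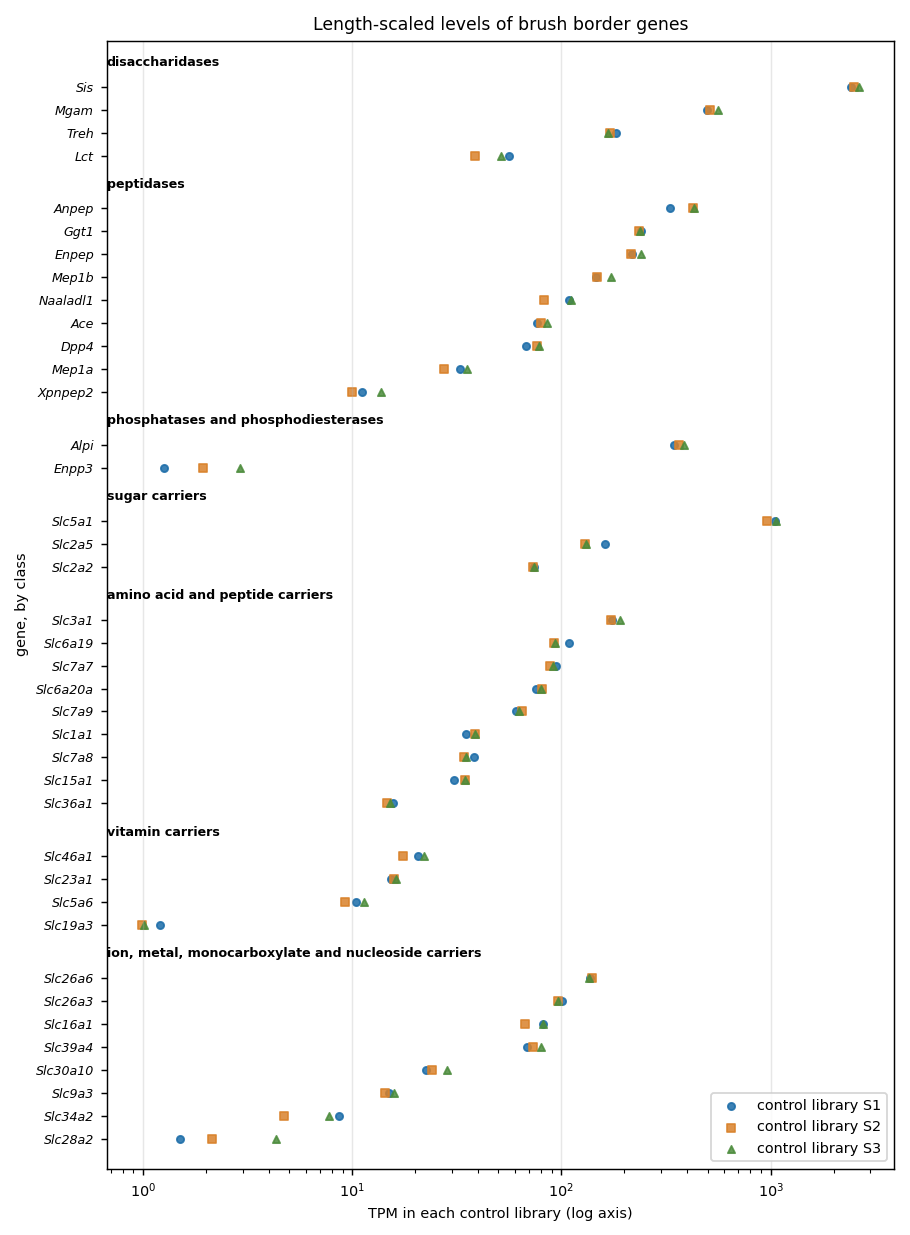
TPM of each brush border gene (rows, by class) in the control libraries S1, S2 and S3 (points), on a log axis. Sis and Slc5a1 stand at the upper end with 2520 and 1026 TPM on average, and the libraries lie furthest apart for Slc28a2, Enpp3 and Slc34a2, with smaller gaps for genes such as Lct and Anpep.

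Disaccharidases split the sugars of the diet into monosaccharides, and they took 44.7% ± 0.381 (SD, n = 3) of the TPM of the list with 4 genes. Sis, which encodes sucrase-isomaltase, had 2433, 2494 and 2633 TPM in S1, S2 and S3, and alone held 34.5% ± 0.475 of the TPM of the list. Mgam, which encodes maltase-glucoamylase, the enzyme that splits starch fragments beside Sis, had 498, 511 and 560 TPM. Treh had 182, 171 and 167 TPM. Lct, which encodes lactase, the enzyme for milk sugar, was the lowest with 56.2, 38.8 and 51.6 TPM. The order of the 4 disaccharidases was the same in every library, and the ranges of no pair overlapped. The ratio of Sis to Mgam was steady, with 4.88 in S1, 4.88 in S2 and 4.70 in S3 (4.82 ± 0.105, SD, n = 3), whereas that of Sis to Lct was 43.3, 64.3 and 51.0. The level of Mgam depends on its length, as 414 TPM were found with the union of its exons, and the ratio of Sis to Mgam was then 6.33.

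Among the carriers of sugars, Slc5a1, the sodium-glucose cotransporter of the brush border, had 1053, 965 and 1060 TPM. Slc2a5, the fructose carrier of the same membrane, had 162, 129 and 131 TPM. Slc2a2, which passes glucose, galactose and fructose through the basolateral membrane, had 73.7, 73.0 and 73.9 TPM. The 3 carriers took 17.0% ± 0.895 of the TPM of the list, and their ranges did not overlap. Slc5a1 stood at 14.0 ± 0.632 times Slc2a2 (SD, n = 3), with 14.3 in S1, 13.2 in S2 and 14.3 in S3. Slc2a5 stood at 2.1998 times Slc2a2 in S1 and at 1.77 and 1.78 times in S2 and S3, so that S1 was apart from the other libraries in this ratio.

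The 9 peptidases took 17.97% ± 0.660 of the TPM of the list, with a median of 101 TPM. Anpep, which encodes aminopeptidase N and removes single amino acids from the ends of peptides, was the highest with 330.2, 424 and 431 TPM, and was lower in S1 than in both other libraries. Ggt1, which transfers the glutamyl group of glutathione, followed with 241, 235 and 237 TPM. Enpep, the aminopeptidase for acidic residues, had 218, 216 and 241 TPM, and its range overlapped with that of Ggt1. Naaladl1, a peptidase of the family of glutamate carboxypeptidase, had 108, 82.8 and 112 TPM and was lowest in S2. Ace, the angiotensin-converting enzyme, which removes dipeptides, had 76.2, 80.3 and 84.9 TPM. Dpp4, which releases dipeptides behind proline or alanine and so inactivates incretin hormones, had 67.5, 76.6 and 78.2 TPM, and overlapped with Ace. Xpnpep2, a membrane aminopeptidase for bonds before proline and the only gene of the list on the X chromosome, was the lowest with 11.1, 10.03 and 13.8 TPM. With the union of its exons as the length it came to 8.93 TPM on average.

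Meprins are metalloproteases made of α and β subunits, and their genes differed in level. Mep1b had 146, 147 and 173 TPM, and Mep1a had 32.6, 27.4 and 35.5 TPM. The ratio of Mep1b to Mep1a was 4.48, 5.38 and 4.88, and thus above 1 in each library. Dissimilar levels were found for the 2 enzymes that act on phosphates as well. Alpi, the phosphatase known to remove phosphate from bacterial lipopolysaccharide, had 346, 366 and 384 TPM. Enpp3, which cleaves extracellular nucleotides, had 1.26, 1.94 and 2.91 TPM. Akp3, a close relative of Alpi whose reads the quantification may have divided with it, had 281, 478 and 513 normalized counts, against 14115, 15152 and 15415 for Alpi.

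Carriers of amino acids and peptides took 8.64% ± 0.220 of the TPM of the list with 9 genes, and were at intermediate levels with a median of 62.7 TPM. Slc3a1, which brings its partner to the membrane, was the highest with 174, 172 and 191 TPM. This partner is Slc7a9, the transporting subunit for cystine and basic amino acids, which had 60.9, 64.5 and 62.6 TPM. The heavy subunit was therefore at 2.85, 2.66 and 3.06 times the level of the transporting one. The basolateral pairs share 1 heavy subunit, Slc3a2. Slc7a7, which releases basic amino acids, had 94.5, 87.8 and 90.7 TPM, and Slc3a2 stood at 0.959, 0.953 and 0.960 times that level. Slc7a8, which exchanges neutral amino acids, had 38.4, 34.1 and 35.1 TPM, and Slc3a2 stood at 2.36, 2.46 and 2.48 times that level. With the union of exons the ratio of Slc3a2 to Slc7a7 was 1.03, so that the place of this ratio on either side of 1 depends on the length chosen.

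Slc6a19, the main carrier of neutral amino acids in the brush border, had 108, 91.8 and 92.8 TPM. Slc6a20a, the carrier of proline, had 75.7, 80.4 and 79.6 TPM, and its near copy Slc6a20b had 207, 169 and 191 normalized counts against 5147, 5540.3 and 5331 for Slc6a20a. Slc1a1, for glutamate and aspartate, had 35.2, 38.8 and 38.5 TPM. Slc15a1, the carrier of di- and tripeptides, had 30.8, 34.5 and 34.5 TPM, so that the levels of Slc1a1, Slc7a8 and Slc15a1 followed each other in the order of the list with overlapping ranges. Slc36a1, a proton-coupled carrier of small amino acids, was the lowest of the class with 15.6, 14.7 and 15.1 TPM.

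The 4 vitamin carriers of the list had the lowest levels among its classes, with 0.647% ± 0.0298 of the TPM of the list and a median of 13.1 TPM. Slc46a1, the proton-coupled folate carrier, had 20.5, 17.6 and 21.99 TPM. Slc23a1, a carrier of vitamin C, had 15.3, 15.9 and 16.3 TPM. Slc5a6, which carries biotin and pantothenate, had 10.4, 9.26 and 11.4 TPM. Slc19a3, a thiamine carrier, was the lowest of all 39 genes with 1.202, 0.994 and 1.01 TPM, or 62.4, 52.4 and 51.8 normalized counts. Vitamin carriers outside the list were mostly higher, with 27.5 ± 1.63 TPM for the thiamine carrier Slc19a2, 31.1 for the folate carrier Slc19a1, 25.0 and 12.7 for the riboflavin carriers Slc52a3 and Slc52a2, and 20.5 for the vitamin C carrier Slc23a2. Between Slc46a1 and Slc23a1, and between Slc5a6 and Slc19a3, the ranges did not overlap.

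Of the 8 carriers of ions, metals, monocarboxylates and nucleosides, the chloride-bicarbonate exchangers were the highest. Slc26a6 had 136, 141 and 135 TPM, and Slc26a3 had 100.3, 96.8 and 96.4 TPM. Slc9a3, the sodium-proton exchanger with which they work in salt uptake, had 15.0, 14.3 and 15.9 TPM. Slc26a6 was thus at 9.13 ± 0.672 times Slc9a3, and Slc26a3 at 6.504 ± 0.380 times. Slc16a1, the monocarboxylate carrier of lactate and short-chain fatty acids, had 81.3, 67.1 and 81.7 TPM. For metals, the zinc importer Slc39a4 had 68.2, 73.1 and 79.9 TPM and the manganese exporter Slc30a10 had 22.5, 24.1 and 28.4 TPM. The phosphate carrier Slc34a2 was low with 8.67, 4.71 and 7.71 TPM, as was the nucleoside carrier Slc28a2 with 1.496, 2.15 and 4.33 TPM.

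In the order of all 39 genes by TPM, 22 of the 38 neighbouring pairs had overlapping ranges and 16 did not. The order was thus open in long runs, such as the 6 genes from Ace down to Slc2a2 (Ace, Slc6a20a, Slc16a1, Dpp4, Slc39a4 and Slc2a2), in which each gene overlapped with its successor. Sis and Slc5a1 were separate from each other and from the rest with either length. Mgam was separate from Anpep with the longest transcript, but with the union of exons it had 395, 404 and 443 TPM, which overlapped with 343, 441 and 448 TPM for Anpep. With that length 25 of the 38 pairs overlapped. Slc34a2 was separate from Slc28a2 and Slc28a2 overlapped with Enpp3. Enpp3 was separate from Slc19a3 only by the difference between 1.26 and 1.202 TPM in S1 (99 and 66 reads), and with the union of exons these ranges overlapped.

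**Figure D2:**
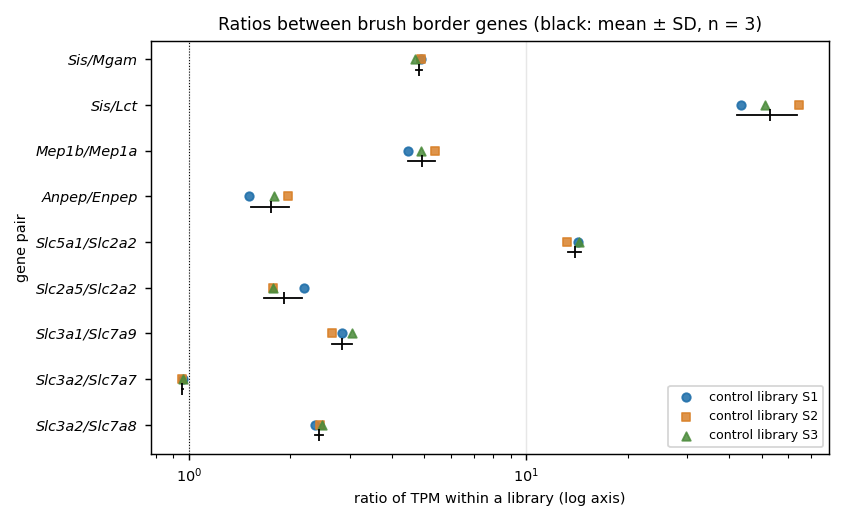
Ratio of the TPM of 2 genes within each control library (points) on a log axis, with the mean ± SD (n = 3) in black. Sis to Lct runs from 43.3 to 64.3, while Slc3a2 to Slc7a7 lies close to 1 in the 3 libraries.

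The spread between the control libraries differed from gene to gene. The coefficient of variation (CV, the SD as a percentage of the mean of normalized counts) had a median of 6.14% over the 39 genes, beside 6.62% over the 13803 genes. It was under 5% for 16 genes, from 5% to 10% for 12 and 10% or more for 11. For 30 of the 39 genes the CV was over 2 times what counting reads alone gives, as it was for 39.8% of all genes. Counting error shrinks as the reads increase, and most of the 39 genes have many reads, so these shares are not matched for level. For 3 genes, Slc2a2, Slc23a1 and Slc19a3, the spread was no larger than counting error. Slc2a2 was the steadiest with 7167, 7193 and 7073 normalized counts and a CV of 0.886%. Sis had a CV of 3.19%.

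**Figure D3:**
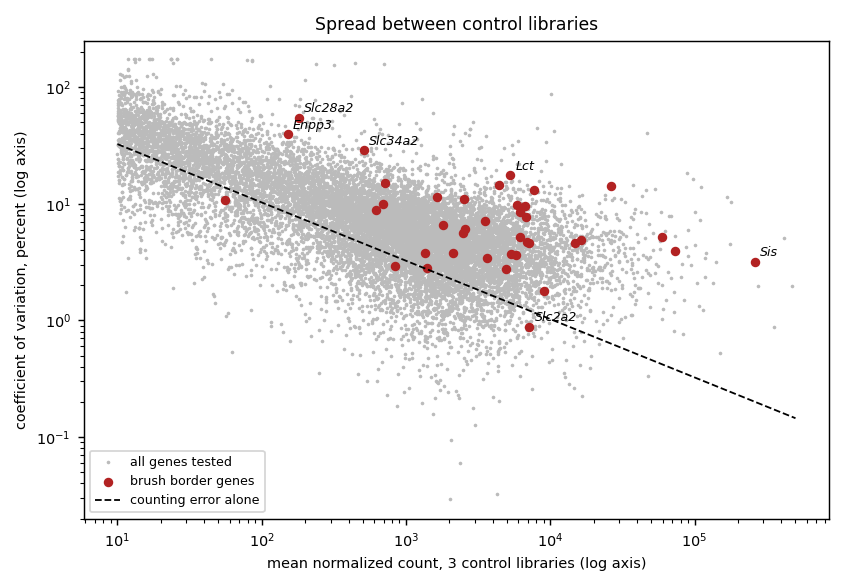
CV between the 3 control libraries against the mean normalized count, both on log axes, for the brush border genes (red) and all 13803 genes tested (grey), with the line that counting error alone gives. Slc28a2, Enpp3 and Slc34a2 lie far above this line with 54.5%, 39.6% and 28.7%, and Slc2a2 lies below it.

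The largest spreads belonged to genes with few reads, but not only to these. Slc28a2 had 102, 149 and 291 normalized counts in S1, S2 and S3, a CV of 54.5% where counting gives 7.64%. Enpp3 had 93.7, 146 and 213 normalized counts, a CV of 39.6% against 8.36%. Both were lowest in S1 and highest in S3. Slc34a2 had 632, 348 and 554 normalized counts, a CV of 28.7% against 4.54%, and was lowest in S2. Among genes with more reads, Lct had 6060.4, 4242 and 5480.1 normalized counts with a CV of 17.7%, and was lowest in S2 like Slc34a2. Anpep had 21897, 28517 and 28116 normalized counts (CV 14.2%), and Slc2a5 had 8940, 7236 and 7128 (CV 13.1%). For these 2 genes S2 and S3 were close and S1 stood apart, in opposite directions.

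To describe each library, genes were counted that stood at least 1.2 times above or below the mean of the other libraries. In S2, 6 of the 39 genes were lower by this measure, as were 9.75% of all genes, and none of the 39 was higher, where 8.67% of all genes were. The 6 genes were Lct, Mep1a, Naaladl1, Slc28a2, Slc34a2 and Xpnpep2. In S1, 3 genes were higher (Lct, Slc2a5 and Slc34a2; 10.2% of all genes) and 3 lower (Anpep, Enpp3 and Slc28a2; 11.2%). In S3, 3 were higher (Enpp3, Slc28a2 and Xpnpep2; 8.95%) and none lower (9.87%). As with the CV, the shares of all genes beside these counts and those below are not matched for level. The counts change when 1 library is left out and the others are set against each other. Against S1 alone, S2 had 3 higher genes (11.5% of all genes) and 4 lower (11.6%). Against S1 alone, S3 had 5 higher (12.3%) and 2 lower (11.8%). Against S2 alone, S3 had 8 higher (10.3%) and 0 lower (10.3%). Expressed as log2 ratios, Slc28a2 stood at -1.11 in S1 and at 1.22 in S3, and Slc34a2 at -0.77 in S2. Sis stood between -0.07 and 0.06 in the 3 libraries. S3 was also the library with the highest sums of Paneth, goblet, enteroendocrine and tuft cell markers, and S1 the one with a low level of Xist and a high one of Ddx3y. Their part in these values was not tested.

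**Figure D4:**
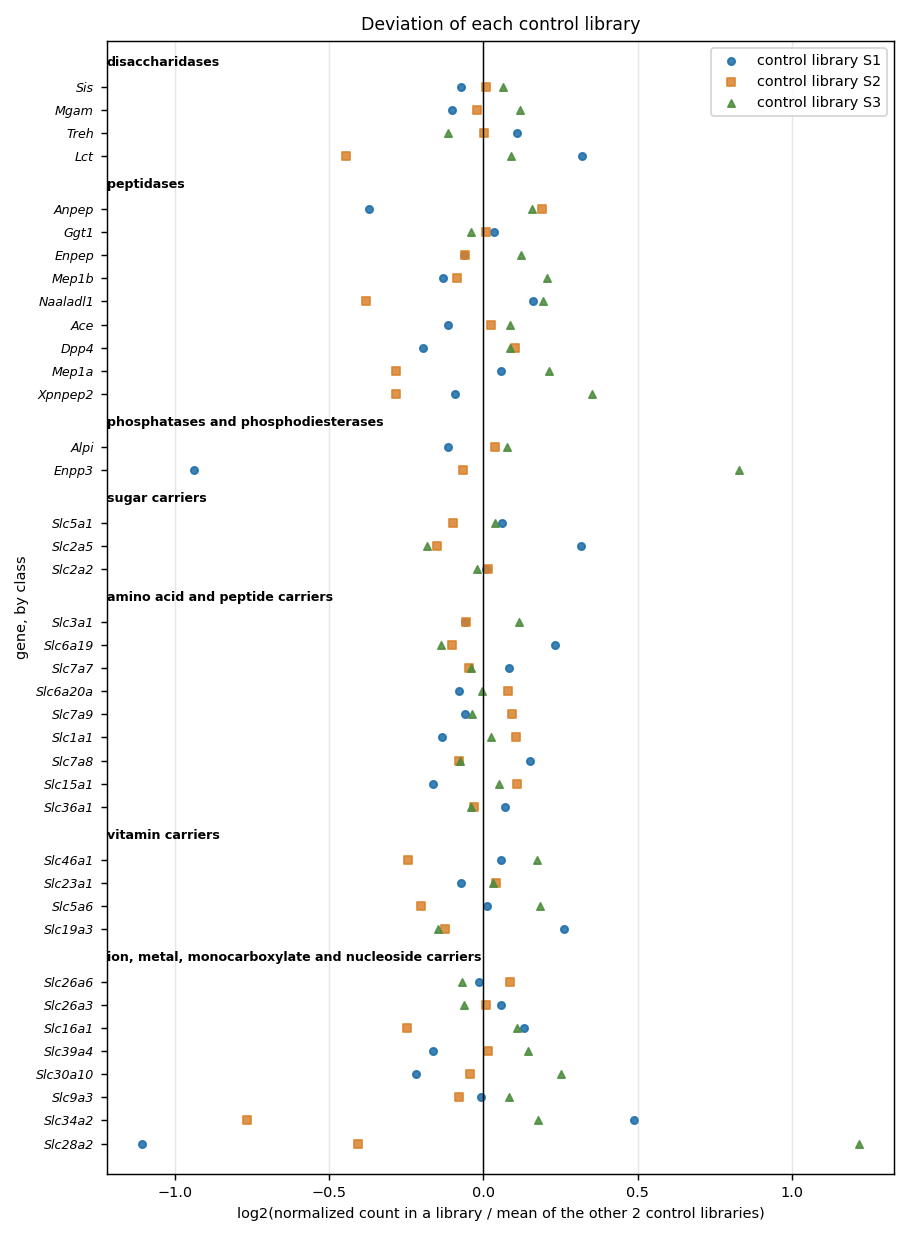
Log2 of the normalized count of each brush border gene in a control library over the mean of the other libraries. Most points lie near 0, while Slc28a2 (-1.11 in S1 and 1.22 in S3), Enpp3 and Slc34a2 lie far from it.

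Beyond the 39 genes, 58 other genes of digestion and absorption had been listed, of which 55 have a row and 52 reached a mean of 10 normalized counts. Of the 55, 10 were above 100 TPM, 33 between 10 and 100 TPM and 12 below, with a median of 28.9 TPM. Among those with the most normalized counts were Atp1b1, a subunit of the sodium pump, with 47686 ± 161 (SD, n = 3), the taurine carrier Slc6a6 with 15231 ± 312 and the sodium-potassium-chloride cotransporter Slc12a2 with 12681 ± 166, which is also among the stem cell markers used here. Tmprss15 and Slc15a2 were singled out after their values had been seen. Tmprss15, which encodes enteropeptidase, the duodenal activator of trypsin, had 1 read in each library and was thus below the 3 reads that a count of 0 allows. Slc15a2, a peptide carrier related to Slc15a1, had 0.946, 43.8 and 74.8 normalized counts in S1, S2 and S3. The S1 value is 1 read and thus also below 3 reads. The CV of Slc15a2, 93.1%, was above that of each of the 39 genes, but it includes this S1 value and is therefore not exact.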

How the data were processed

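Polyadenylated RNA of small intestinal organoids was sequenced by the authors (TruSeq Stranded mRNA kit, paired-end). Per the labels' processing notes and the study's methods, reads were mapped with Bowtie 2 (2.2.9), quantified with RSEM (1.2.31) and tested with DESeq2 (1.14.1), with mm9 as the build. The authors deposited 1 table of normalized counts, a signal that is never negative, with 21256 rows; 1 row with a repeated identifier was dropped. The 3 columns used hold whole multiples (tolerance 0.001) of the value of 1 read for 100% of their values, as for counts divided by 1 factor per library. For 3 further columns of values no label of a sample matches, so they stayed out of every step.

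TPM were computed from the recovered reads with the longest basic protein-coding transcript of GENCODE M21, an annotation of another build than the authors', so lengths and promoter windows may differ from those used in their quantification. CV and library ratios were computed over the genes whose mean reached 10 normalized counts. The counting error is that of Poisson reads. All genes of the list are named, since each passed this minimum, beside Cebpa and the 5 other digestion and absorption genes with the most normalized counts, of which some are not reported here. The members, classes and lists were chosen with earlier results of these data known. The gene pairs, the TPM bounds, the 1.2-fold limit and the limit of 2 times counting error were chosen after the values had been seen, as were the promoters shown out of a search with 11 strings. The exon union was the first length computed, and the longest transcript was preferred after the union had been seen to change Mgam. The test of genotypes that had been set out (limma on log2 values) was not run. Of the 39 genes, 9 share an exon position with a gene on the opposite strand and none with one on the same strand. Symbols were found for 21213 of 21255 genes. The CV and library ratio calculations were tested on simulated reads, and the TPM calculation on a small constructed example. Ratios between gene pairs were not tested in this way. The software was Python 3.11.15 with pandas 2.3.3, numpy 2.4.6 and matplotlib 3.10.9. The sources do not say how many mice gave the libraries. S1 differed from S2 and S3 in sex-linked transcripts, and how much of the spread between libraries is technical was not tested. The SDs describe the whole spread between the 3 control libraries, whereas the floors (3 counts) cover counting error only.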

Additional observations from a re-analysis of the deposited data

How the results depend on the processing

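No paired analysis was possible because C/EBPα KO libraries could not be tied to any column by name, and the alternatives set out for C/EBPα KO against control (pseudocounts, minimum counts, edgeR, DESeq2 and libraries left out) were not run for the same reason. The summed normalized counts of the 39 genes, 574203, were 574221 with libraries scaled to the same upper quartile and 574193 with the same total, and from 565558 to 580855 when 1 control library was left out. Such scalings nearly cancel in a mean over libraries, and leaving out 1 of 3 libraries moves a mean by less than its SD by construction, so neither checks stability. For single genes the 3 leave-one-out means differed from the full mean by -30.6% to 21.7%. The following alternatives were chosen after seeing the data. With the union of exons as the length, 13 TPM values and TPM ratios moved by more than their SD and 44 did not. The counts of genes at least 1.2 times apart in a library were within 1.5 times under both scalings. Set against each other library alone, the counts of lower genes were 3 to 5 in S1, 4 to 8 in S2 and 0 to 2 in S3. The counts of higher genes were 2 to 4 in S1, 0 to 3 in S2 and 5 to 8 in S3. Over all genes the shares in these comparisons of 2 libraries were 10.3% to 12.3% in each direction, again not matched for level. Depth limits the lowest genes, as for Slc19a3, where counting alone gives a CV of 13.8%.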
